A study of Mus musculus with 10 samples.

Results

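Cutaneous tumors of mice were grouped by their own level of *Vim*, the gene of the mesenchymal filament protein vimentin, without regard to genotype. The groups were chosen by the deposited *Vim* FPKM of each tumor (fragments scaled by gene length and by the library total): 3 of the 10 tumors lay under 2000 FPKM and were called Vim-low, and the other 7 were called Vim-high. The Vim-low tumors were *Ldha*-null tumors 1 and 3 (KO1 and KO3) and wild-type tumor 5 (WT5), and the Vim-high tumors were KO2, KO4, KO5 and WT1 to WT4. Bulk RNA-seq had been made from fresh tumors, 5 labelled LDHA-/- and 5 wild type for *Ldha*, the gene of the lactate dehydrogenase A subunit. The labels name squamous carcinoma cells as the source, while the protocol gives whole tumors with no sorting, so a library can hold stroma, leukocytes and adjoining tissue. In the study, squamous cell carcinoma (SCC) was induced in hair follicle stem cells (HFSCs) by a genetic model that includes loss of floxed *p53*, driven by *K15CrePR* with mifepristone or *Lgr5CreER* with tamoxifen, or by DMBA/TPA, and the *Ldha*-null mice also carried floxed *Ldha*. The sources used here do not state which of these models gave the sequenced tumors, nor the ages of those mice. Some *Ldha*-null tumors of the study were mosaic for the deletion. The study's text gives 6 tumors of each genotype, whereas 5 of each were analysed here.

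Squamous tumors of the skin range from well-differentiated growths, which keep the keratins, desmosomes and cornified proteins of the epidermis, to undifferentiated spindle cell tumors, which lose them and carry vimentin and other mesenchymal proteins. In epithelial to mesenchymal transition (EMT), transcription factors of the Snail, Zeb and Twist families repress junction genes such as *Cdh1*, the gene of E-cadherin. Fibroblasts and macrophages of the stroma also express *Vim*, so in a bulk tumor its level reflects both the tumor cells and the stroma.

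Total counts were 12969508 to 17694201 per tumor. At least 1 FPKM was reached by 12367 to 12900 genes in the Vim-low tumors and by 13066 to 14153 in the Vim-high tumors. KO1 stood apart from all other tumors: its Spearman correlation with them over genes was 0.715 to 0.784, against 0.945 between KO3 and WT5 and 0.923 to 0.979 among the Vim-high tumors. The 50 most abundant genes took 34.8% of the counts in KO1, 26.0% in KO3 and 19.8% in WT5, and 15.0% to 17.9% in the Vim-high tumors. KO1 is therefore given apart from KO3 and WT5 below. *Ldha* RNA does not sort the tumors by their genotype labels: it was 1882, 246, 1288, 542 and 324 FPKM in KO1 to KO5 and 390, 340, 345, 589 and 2824 FPKM in WT1 to WT5. Reads over the whole gene were counted, so what remains of it after a deletion of one part is counted too, and *Ldha*-null and wild type below are names taken from the labels.

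*Vim* (ENSMUSG00000026728, mm10 chromosome 2, 13573927 to 13582826) stood at 198 FPKM in KO1, 869 in KO3 and 1485 in WT5. In the Vim-high tumors it was 4101 at the lowest, 4408 at the median and 6043 at the highest. No tumor lay between 1485 FPKM (WT5, just inside the limit) and 4101 FPKM (KO2, just outside it). Because these values chose the groups, and every other gene was read from the same libraries, differences between the groups are described below and not tested. In bulk tumors, fewer cells of a type and less RNA per cell cannot be told apart.

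The other markers checked the description of the 2 classes. *Col3a1* (ENSMUSG00000026043, chromosome 1, 45311538 to 45349706), a collagen of fibroblasts and mesenchyme, stood at 31.2 FPKM in KO1, 586 in KO3 and 747 in WT5, against 1282 to 2332 (median 1766) in the Vim-high tumors, so that the classes did not overlap. *Krt14* (ENSMUSG00000045545, chromosome 11, 100203162 to 100207548), a keratin of basal keratinocytes, was 4195 FPKM in KO1, 28399 in KO3 and 28691 in WT5. Its level in the Vim-high tumors was 138 to 2830 FPKM (median 663), below each Vim-low tumor. *Krt5* (ENSMUSG00000061527, chromosome 15, 101707070 to 101712891), its partner keratin, stood at 647 FPKM in KO1, 2680 in KO3 and 5787 in WT5, against 44.1 to 528 (median 189). *Cdh1* (ENSMUSG00000000303, chromosome 8, 106603351 to 106670246) was 59.7 FPKM in KO3 and 76.0 in WT5, above the Vim-high range of 3.85 to 17.8 (median 7.15), while KO1 at 14.4 FPKM lay inside it. *Ckm* (ENSMUSG00000030399, chromosome 7, 19411094 to 19421583), the muscle creatine kinase, separated KO1 alone, at 5646 FPKM against 1.13 in KO3, 1.37 in WT5 and 1.31 to 4.19 in the Vim-high tumors. Keratin-rich and Vim-low thus held together in KO3 and WT5, whereas KO1 held keratinocyte RNA at intermediate levels beside muscle RNA.

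**Figure D1:**
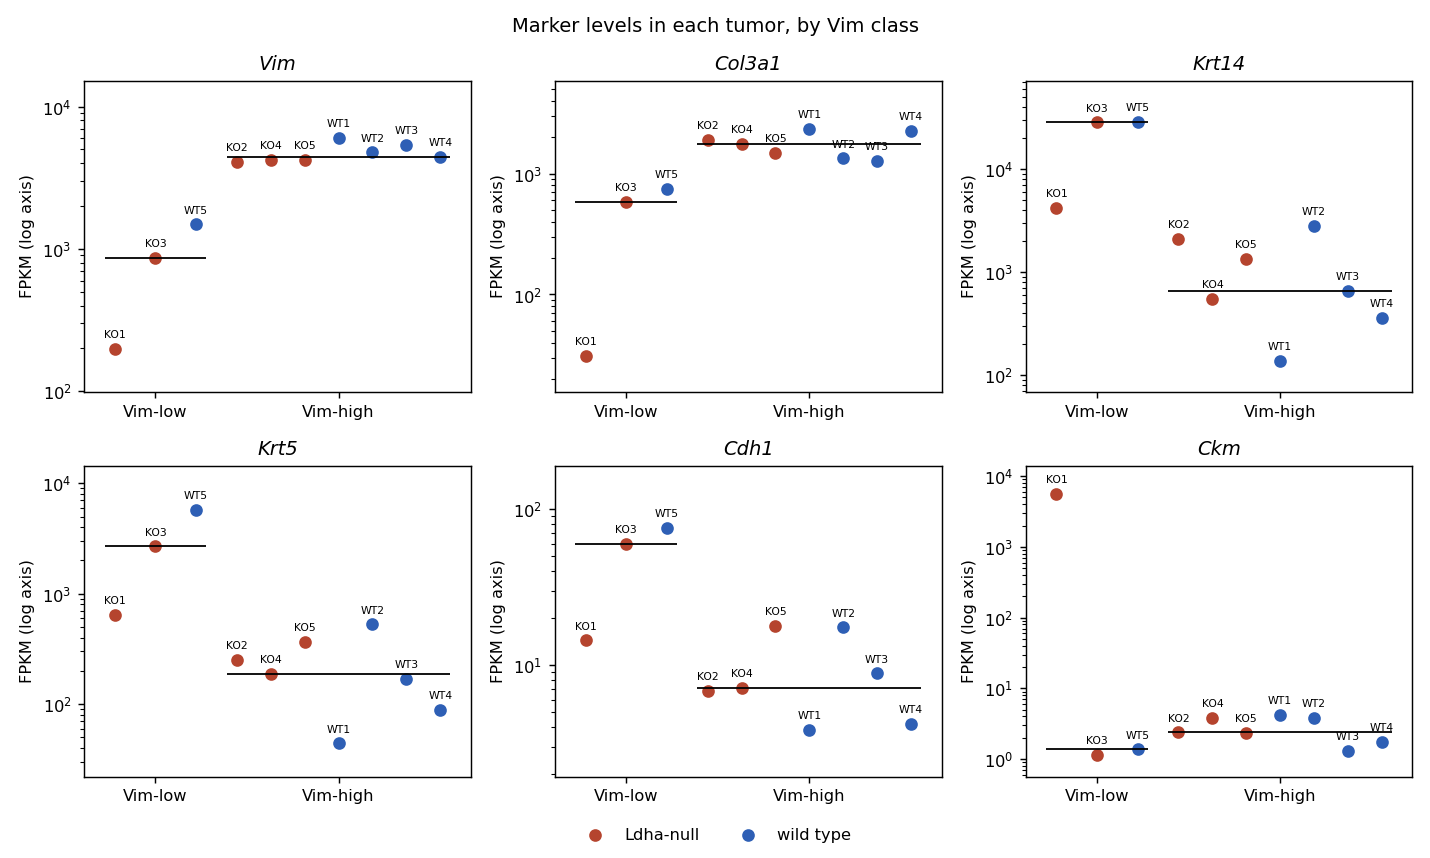
FPKM of the 6 markers in each tumor on log axes, with the 3 Vim-low tumors on the left and the 7 Vim-high tumors on the right of each panel. Red points are *Ldha*-null and blue points wild-type tumors, and lines are class medians. *Krt14* in KO3 (28399 FPKM) and WT5 (28691 FPKM) lies above every other tumor, and *Ckm* is high in KO1 (5646 FPKM) only.

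FPKM is scaled by the total count of a tumor, so that abundant muscle genes lower all other values in KO1. Differences were therefore computed on log2 CPM, counts scaled to a common library size, with TMM factors, a method that sets the bulk of genes equal between tumors. The TMM factor was 0.580 in KO1, 0.882 in KO3 and 0.949 in WT5, against 1.04 to 1.20 in the Vim-high tumors. A gene was counted as higher in the Vim-low class when each of its 3 tumors lay above each of the 7 Vim-high tumors and the mean difference was at least 2-fold, and as lower in the reverse case. Of 15176 genes with enough counts, 1127 (7.43%) were higher and 1254 (8.26%) lower in the Vim-low tumors. On log2(FPKM + 1) in place of this scale, 464 were higher and 1856 lower, which moved the share of higher genes among those counted from 47.3% to 20%, and the median of all genes was then -0.34 in place of 0.02. The largest differences were mostly upward: at least 8-fold was reached by 390 genes in the higher direction and by 97 in the lower. *Cdh1*, higher by a log2 difference of 2.81, is among the genes whose FPKM overlapped between the classes while the TMM-scaled values did not.

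Keratinocyte genes were higher in the Vim-low tumors for most members of each list of keratins, envelope and desmosome genes. Of 8 basal keratinocyte genes, 7 were higher and 0 lower, with a median log2 difference of 3.81 (2.69 in KO1 and 4.62 in KO3 and WT5). Beside them, 7.43% of all genes were higher, and the median of all genes was 0.02. *Trp63*, the master regulator of stratified epithelium, stood at 13.4 FPKM in KO1, 70.6 in KO3 and 65.7 in WT5, against 1.06 to 6.67 (median 2.76) in the Vim-high tumors. The integrin gene *Itgb4* was the exception, at 12.5, 52.2 and 328 FPKM in KO1, KO3 and WT5 against 36.8 to 166 (median 51.5). Only WT5 exceeded the Vim-high range for *Itgb4*.

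Keratins of the upper layers and of activated epidermis showed larger differences than the basal keratins. In this list of 10 genes, 9 were higher and 0 lower, with a median log2 difference of 5.34, beside 7.43% of all genes higher. *Krt6b*, a keratin of wounded and hyperproliferative epidermis, headed the abundant genes of the whole table with a log2 difference of 6.20. It was 741 FPKM in KO1, 7926 in KO3 and 5056 in WT5, against 4.62 to 384 (median 66.7) in the Vim-high tumors. *Krt6a* stood at 712, 7937 and 6986 FPKM in KO1, KO3 and WT5, against 16.3 to 234 (median 90.6). *Krt16*, which pairs with the *Krt6* keratins, reached 988, 6808 and 6818 FPKM against 8.96 to 552 (median 102). KO1 was the lowest of the 3 Vim-low tumors for each of these, and still lay above all Vim-high tumors. *Krt13*, a keratin of internal stratified epithelia, had the largest log2 difference of the list (7.68), but was uneven: 36.1 FPKM in KO1, 32.7 in KO3 and 1821 in WT5, with at most 2.92 FPKM in a Vim-high tumor. *Krt77* was the only member of the list not counted, since KO3 at 0.635 FPKM fell inside the Vim-high range of 0.0397 to 2.43 (median 0.656).

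Genes of the cornified envelope, the cross-linked protein shell of dead surface keratinocytes, were higher for 17 of 19 measured members and lower for 0, with a median log2 difference of 4.75. These 17 did not overlap in FPKM either. Over all genes the share that was higher was 7.43%. *Sprr1b*, an envelope precursor, was 120 FPKM in KO1, 949 in KO3 and 1316 in WT5, against 1.56 to 65.7 (median 15.5). *Tgm3*, a transglutaminase that cross-links the envelope, had a log2 difference of 6.92, at 7.39, 53.6 and 116 FPKM in KO1, KO3 and WT5 against 0.0683 to 1.0 (median 0.532). *Rptn*, the repetin gene, stood at 13.1, 195 and 51.7 FPKM against 0.140 to 7.90 (median 1.26). *Lor*, the loricrin gene, was 86.8, 626 and 293 FPKM against 2.97 to 22.4 (median 14.0). The 2 members outside the count were *Ivl* and *Cst6*, for which KO1 lay inside the Vim-high range. *Cnfn*, of the same list, and *Gjb2*, a gap junction gene of the epidermis, were also among the 10 abundant genes with the largest upward differences, at 5.28 and 5.29 on the log2 scale. Their FPKM in KO1, KO3 and WT5 were 218, 592 and 890 for *Cnfn* and 46.2, 364 and 223 for *Gjb2*.

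The sequences before the transcription start of genes that moved together are shown for *Krt5* and 3 cornified envelope genes, with *Vim* for contrast. Each is the 250 bases before a RefSeq start on GRCm38.p6 (the assembly of mm10), read 5′ to 3′ on the strand of the gene. Capitals mark matches to CAGGTG on both strands (an E-box of the kind bound by Snail and Zeb factors) and TATAAA on both strands (a TATA box). They also mark TGANTCA with any base at N, a looser form of the AP-1 motif, which has C or G there. Windows were *Krt5* at chr15:101712906-101713155 (minus strand), *Sprr1b* at chr3:92438780-92439029 (minus), *Rptn* at chr3:93393449-93393698 (plus), *Lor* at chr3:92083143-92083392 (minus) and *Vim* at chr2:13574061-13574310 (plus).
Krt5: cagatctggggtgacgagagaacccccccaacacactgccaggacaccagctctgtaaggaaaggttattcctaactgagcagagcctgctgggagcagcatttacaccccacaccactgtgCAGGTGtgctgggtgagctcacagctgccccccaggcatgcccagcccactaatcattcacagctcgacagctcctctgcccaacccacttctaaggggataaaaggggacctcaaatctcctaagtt
Sprr1b: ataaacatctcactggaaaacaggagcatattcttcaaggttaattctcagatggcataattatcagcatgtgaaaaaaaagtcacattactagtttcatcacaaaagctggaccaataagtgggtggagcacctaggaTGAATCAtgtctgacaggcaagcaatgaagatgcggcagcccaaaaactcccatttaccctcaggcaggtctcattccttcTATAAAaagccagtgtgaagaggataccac
Rptn: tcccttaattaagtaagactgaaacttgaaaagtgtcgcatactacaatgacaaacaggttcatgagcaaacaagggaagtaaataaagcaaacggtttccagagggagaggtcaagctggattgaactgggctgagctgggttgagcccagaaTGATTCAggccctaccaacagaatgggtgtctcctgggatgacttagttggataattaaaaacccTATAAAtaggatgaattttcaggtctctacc
Lor: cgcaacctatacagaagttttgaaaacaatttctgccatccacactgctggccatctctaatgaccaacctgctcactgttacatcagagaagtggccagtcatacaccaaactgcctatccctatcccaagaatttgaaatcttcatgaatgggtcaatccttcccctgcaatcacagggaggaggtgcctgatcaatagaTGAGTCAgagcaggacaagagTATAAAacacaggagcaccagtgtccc
Vim: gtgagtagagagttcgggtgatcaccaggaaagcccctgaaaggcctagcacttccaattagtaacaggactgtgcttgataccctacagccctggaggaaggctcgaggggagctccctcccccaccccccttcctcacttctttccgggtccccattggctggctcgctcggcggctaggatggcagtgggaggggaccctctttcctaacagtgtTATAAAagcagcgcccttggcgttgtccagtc

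The 3 cornified envelope windows each held a TGANTCA match, starting at -111 (*Sprr1b*), -96 (*Rptn*) and -48 (*Lor*) relative to the start, and a TATAAA match at -30, -31 and -27. The TGANTCA matches read TGAATCA in *Sprr1b*, TGATTCA in *Rptn* and TGAGTCA in *Lor*, and only that of *Lor* has the stricter AP-1 form. The *Krt5* window held a CAGGTG match at -128, and the *Vim* window a TATAAA match at -32. Of the tested genes, 9772 had a window within 500 bases of the gene start in the deposited tables, among them 15 of the cornified envelope list. TGANTCA occurred in 66.7% of those 15 windows and in 4.86% of all 9772, and TATAAA in 73.3% and 6.79%. CAGGTG occurred in 20% and 15.3%, in 5 of 8 windows of the adherens and tight junction list (62.5%) and in 3 of 4 of the list of upper-layer keratins, which are few windows. Several envelope genes are paralogs that lie in 1 cluster on chromosome 3, so their windows are not independent. These are matches of letters, not evidence of binding.

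Cell contacts followed the keratins. Of 12 desmosome genes, 11 were higher and 0 lower in the Vim-low tumors (median log2 difference 3.87), beside 7.43% of all genes higher. *Dsg3*, an epidermal desmosomal cadherin, was 6.90 FPKM in KO1, 53.4 in KO3 and 107 in WT5, against 0.326 to 1.74 (median 0.931) in the Vim-high tumors. *Dsp*, the plakin that anchors keratin filaments to desmosomes, was 34.9, 238 and 359 FPKM against 1.74 to 20.3 (median 9.48). Only *Pkp2*, a plakophilin that is not restricted to epidermis, was in neither count. Of 12 adherens and tight junction genes, 8 were higher and 0 lower (median 2.15), beside the same 7.43% of all genes. Only 3 of the 8 were also free of overlap in FPKM. *Crb3*, a polarity gene, was one of these 3, at 5.20, 21.0 and 22.9 FPKM against 0.256 to 3.31 (median 1.30).

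Epithelial transcription factors and splicing regulators moved with them: 15 of 17 measured genes were higher and 0 lower (median log2 difference 3.83), beside 7.43% of all genes higher. *Ovol1*, a repressor of EMT, stood at 7.17 FPKM in KO1, 35.7 in KO3 and 50.9 in WT5, against 0.742 to 3.01 (median 1.17). *Grhl3*, a factor of terminal differentiation and barrier formation, was 2.95, 14.9 and 31.6 FPKM against 0.0417 to 2.87 (median 1.11). *Barx2* was 14.8, 39.7 and 32.7 FPKM against 0.532 to 4.43 (median 1.90). *Klf4* and *Tfap2a* were not counted, with log2 differences of 0.72 and 0.58 and of 0.01 and -0.48 in KO1 alone. Among 10 hemidesmosome genes, which attach the basal layer to its basement membrane, 3 were higher (*Col17a1*, *Lama3* and *Lamb3*) and 0 lower, beside the same 7.43%.

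Some genes of mesenchymal cells were lower in the Vim-low tumors, more of them in KO1 than in KO3 and WT5. Leaving out *Vim*, which formed the classes, 4 of 17 mesenchymal effectors were lower, 0 higher and 13 in neither count (median log2 difference -1.47), beside 8.26% of all genes that were lower. In KO1 14 of the 17 lay below the Vim-high range (median -2.72), where 22% of all genes did, and in KO3 and WT5 4 did (median -0.55), where 11.1% of all genes did. The 4 were *Fn1*, *Lgals1*, *Pdgfra* and *Lox*. *Fn1*, the fibronectin gene, was 10.6 FPKM in KO1, 191 in KO3 and 195 in WT5, against 374 to 1301 (median 840) in the Vim-high tumors. *Lgals1*, the galectin-1 gene, was 276, 1202 and 1517 FPKM against 5300 to 11664 (median 7449). *S100a4*, a marker of motile mesenchymal cells, had the largest downward difference of the list (-2.87) at 48.8, 624 and 1049 FPKM against 1194 to 6809 (median 3764). It was free of overlap in FPKM but not on the TMM scale.

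EMT transcription factors were split. Of 10, *Zeb2* and *Tcf4* were lower and 0 were higher, beside 8.26% and 7.43% of all genes. *Zeb2*, a repressor of *Cdh1*, stood at 6.75 FPKM in KO1, 9.27 in KO3 and 7.39 in WT5, against 26.2 to 53.4 (median 36.5), and was the only one of the Snail, Zeb and Twist factors on the list that separated the classes on both scales. *Zeb1*, at 19.0, 12.8 and 10.1 FPKM against 29.1 to 41.1 (median 30.9), was lower than the Vim-high range by FPKM, and on the TMM scale only in KO3 and WT5. *Twist1* was 8.54, 19.2 and 65.4 FPKM against 71.5 to 149 (median 124), with the highest of the 3 in WT5. *Snai2* went the other way in the keratin-rich tumors, at 2.43 FPKM in KO1, 16.8 in KO3 and 21.0 in WT5 against 4.70 to 14.6 (median 10.4). On the TMM scale, *Snai1*, *Twist1*, *Twist2*, *Prrx2* and *Foxc2* were counted below the Vim-high range in KO1 but not in both KO3 and WT5, whereas by FPKM *Twist1* and *Prrx2* lay below it in all 3.

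Collagens separated KO1 from the keratin-rich tumors. Of 12 collagen genes, *Col3a1* alone was lower in all 3 Vim-low tumors, a share near the 8.26% of all genes, while 10 were below the range in KO1, beside 22% of all genes. The median log2 difference was -3.19 in KO1 and -0.07 in KO3 and WT5. *Col1a1* was 57.4 FPKM in KO1, against 816 in KO3 and 1719 in WT5, values inside the Vim-high range of 583 to 3258 (median 1724). *Col12a1* lay above the Vim-high range in KO3 and WT5, with a log2 difference of 2.17, and not in KO1 (-1.24). The collagen list as a whole thus differed in KO1 far more than in KO3 and WT5.

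Proteases and their inhibitors showed both patterns. Of 12 genes, *Mmp2*, *Mmp3*, *Timp1* and *Timp2* were lower and 0 higher, beside 8.26% and 7.43% of all genes. *Timp1*, an inhibitor of metalloproteinases, was 4.35 FPKM in KO1, 99.3 in KO3 and 94.2 in WT5, against 438 to 945 (median 596) in the Vim-high tumors, a log2 difference of -3.77. *Mmp10*, a stromelysin of migrating keratinocytes, was the only member above the Vim-high range in KO3 and WT5, at 13.5 and 20.6 FPKM against 1.62 to 8.95 (median 4.40), with 0.334 in KO1. *Mmp9* and *Mmp13* were also far higher in KO3 and WT5 than in KO1: *Mmp13* was 0.752 FPKM in KO1, 41.3 in KO3 and 96.7 in WT5, and 1.83 to 83.4 (median 18.9) in the Vim-high tumors.

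Macrophage genes were mostly lower in all 3 tumors. Of 14 genes, 12 were lower and 0 higher in the Vim-low tumors, beside 8.26% of all genes that were lower, and all 12 were also free of overlap in FPKM. The median log2 difference was -2.58, with -3.83 in KO1 and -1.95 in KO3 and WT5. *C1qa*, a complement gene made by macrophages, was 36.5 FPKM in KO1, 313 in KO3 and 195 in WT5, against 939 to 1962 (median 1142). *Mrc1*, a mannose receptor, was 4.91, 36.1 and 17.4 FPKM against 94.9 to 257 (median 129). *Fcgr1*, an Fc receptor, was 0.622, 10.1 and 2.45 FPKM against 15.2 to 59.6 (median 33.3). The exceptions were *Cd14* and *Emr1*, both highest among the Vim-low tumors in KO3. Together the 14 genes took 0.0279% of counts in KO1, 0.255% in KO3 and 0.129% in WT5, against 0.591% to 1.45% in the Vim-high tumors. Macrophages themselves carry *Vim*, and the part of this difference in the *Vim* level was not tested. The monocyte-attracting chemokines *Ccl8* and *Ccl12* were among the 10 abundant genes with the largest downward differences. *Ccl8* was 8.21, 36.1 and 23.9 FPKM in KO1, KO3 and WT5 against 77.2 to 1560 (median 672).

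Lymphocyte and antigen presentation genes did not follow the classes as closely. Of 12 leukocyte and T cell genes, only *Cd52* was lower in all 3 tumors, a share near the 8.26% of all genes. *Cd52* was 14.3, 73.5 and 16.7 FPKM in KO1, KO3 and WT5 against 169 to 516 (median 349). *Cd3g*, a subunit of the T cell receptor complex, was 1.90, 3.92 and 0.579 FPKM against 0.707 to 39.1 (median 16.7). WT1, a Vim-high tumor, was as low as the Vim-low tumors for these genes: the mean level of the list was -2.29 there relative to the Vim-high mean on the log2 scale, and -1.93, -1.24 and -2.61 in KO1, KO3 and WT5. MHC class II genes were low in WT1 as well. *H2-DMa* and *H2-DMb1* were lower and 0 of 7 genes were higher, beside 8.26% and 7.43% of all genes. The MHC class II list stood at -2.52 in WT1 against -2.87, -1.60 and -2.86 in KO1, KO3 and WT5. Neutrophil and IL-1 genes were uneven among the Vim-low tumors: *S100a8*, which keratinocytes also make, was 906 FPKM in KO1, 2971 in KO3 and 375 in WT5, against 119 to 1379 (median 345). Of 12 genes of that list only *Il1a* was higher in all 3, a share near the 7.43% of all genes. Endothelial genes, 10 in number, held 0 higher and 0 lower, with a median log2 difference of 0.10.

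**Figure D2:**
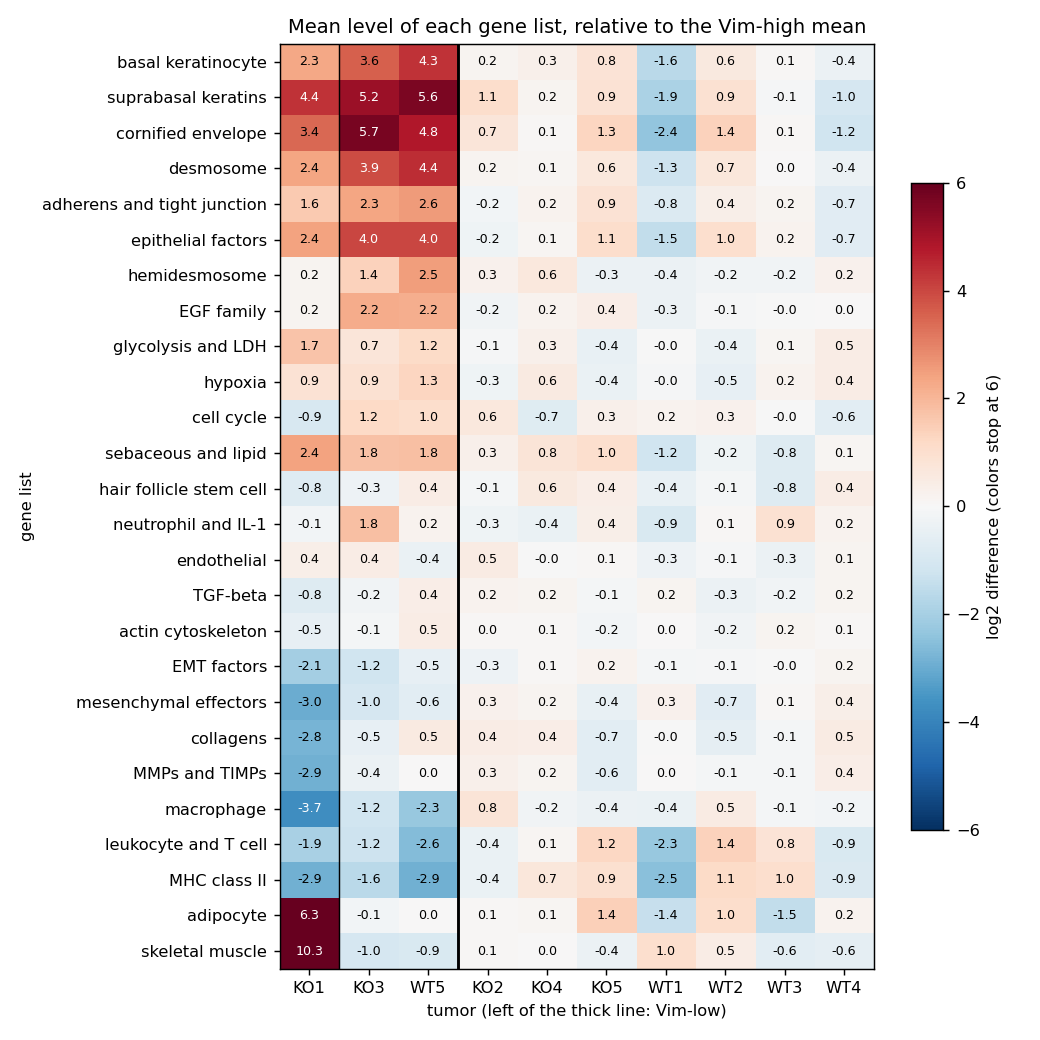
Mean log2 CPM of each of 26 gene lists in each tumor, minus the mean over the 7 Vim-high tumors. Columns are tumors, with KO1, KO3 and WT5 left of the thick line, and rows are lists. The macrophage list stands at -3.74, -1.18 and -2.27 in the Vim-low tumors and the cornified envelope list at 3.43, 5.68 and 4.79, while muscle and adipocyte genes are high in KO1 only (10.31 and 6.26).

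Other genes with large downward differences have no common list. *Nefm*, a neurofilament gene, had the largest log2 difference among abundant genes (-5.01), at 0.262 FPKM in KO1, 2.29 in KO3 and 0.0761 in WT5 against 8.59 to 54.1 (median 16.1). *AA467197* was 4.36, 15.2 and 1.24 FPKM against 84.5 to 327 (median 257). *Amigo2*, a cell adhesion gene, was 0.801, 2.64 and 1.63 FPKM against 17.4 to 92.7 (median 48.2). *Uchl1*, a deubiquitinase of neurons and some tumors, was 3.20, 6.42 and 0.759 FPKM against 10.9 to 246 (median 69.9). The other members of this set of 10, beside *Timp1*, *Ccl8* and *Ccl12*, were *Adamts14*, *Rgs17* and *Tspan11*, with log2 differences of -4.0, -3.90 and -3.53. *Fabp4*, a fatty acid binding protein of adipocytes and other cells, was among the largest upward differences in all 3 tumors alike, at 596 FPKM in KO1, 1006 in KO3 and 950 in WT5 against 12.0 to 155 (median 19.3). In KO3 and WT5 it was the only one of 11 adipocyte genes above the Vim-high range, a share near the 9.84% of all genes.

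*Cdkn2a* and *Hmga2* were looked at after their values were seen. *Cdkn2a*, which encodes the p16 and Arf tumor suppressors, was 8.48 FPKM in KO1, 158 in KO3 and 457 in WT5, against 430 to 1438 (median 932) in the Vim-high tumors, so that WT5 and the lowest Vim-high tumor overlapped. *Hmga2*, a chromatin protein of embryonic and undifferentiated cells, was 1.07, 19.3 and 65.7 FPKM against 73.7 to 148 (median 103). It lay below the Vim-high range by FPKM, but on the TMM scale the classes overlapped and it was counted as lower only in KO1. *Trp53* itself, whose loss drives one of the tumor models, stood at 11.1, 25.4 and 6.79 FPKM against 9.98 to 17.4 (median 15.8) and did not order the classes.

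KO1 was compared with the Vim-high tumors apart from KO3 and WT5. In KO1, 3560 genes (23.5%) lay at least 2-fold above the Vim-high mean and outside the Vim-high range, and 3333 (22%) lay below. For KO3 and WT5 both, 1493 genes (9.84%) lay above and 1688 (11.1%) below. A single tumor leaves a range more often than a pair of tumors does, so these counts are not comparable in size. The sets shared 838 genes above, 23.5% of those of KO1 and 56.1% of those of the pair, and 1028 below, 30.8% and 60.9%. In opposite directions, 184 genes were above in KO1 and below in the pair, and 46 were the reverse. All of these comparisons share the same 7 Vim-high tumors.

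Skeletal muscle set KO1 apart most. All 29 measured muscle genes lay above the Vim-high range in KO1 (median log2 difference 10.36), beside 23.5% of all genes. In KO3 and WT5 0 of the 29 did, and 10 lay below it (median -0.98), beside 11.1% of all genes. The 29 muscle genes took 18.64% of all counts in KO1, 0.00876% in KO3, 0.0116% in WT5 and 0.0191% to 0.0594% in the Vim-high tumors. *Tnnt3*, a fast troponin T, was 22953 FPKM in KO1, 6.43 in KO3 and 9.22 in WT5, and 13.2 to 58.4 (median 24.5) in the Vim-high tumors. *Acta1*, the skeletal muscle actin, was 11245, 4.68 and 6.47 FPKM against 12.6 to 46.6 (median 20.2). *Myh4*, a fast myosin heavy chain, was 5079, 1.02 and 2.47 FPKM against 1.09 to 6.30 (median 1.99). The 3-tumor mean hides this, since its median log2 difference for the list is 2.78 with 0 genes counted. High muscle RNA was measured in KO1 alone. In KO3 and WT5 *Tnnt3*, *Acta1* and *Myh4* lay inside or under the Vim-high range by FPKM. *Ryr1*, of the same list, was 297 FPKM in KO1, 0.311 in KO3 and 0.873 in WT5, against 0.217 to 0.841 (median 0.422). WT5 thus lay just above the Vim-high range for *Ryr1*.

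Adipocyte RNA was also high in KO1: all 11 measured genes lay above the Vim-high range, beside 23.5% of all genes. The median log2 difference of these 11 was 7.10, against -0.88 in KO3 and WT5. *Car3*, a carbonic anhydrase of fat and muscle, was 3517 FPKM in KO1, 1.81 in KO3 and 2.43 in WT5, against 1.07 to 11.6 (median 5.85). *Cfd*, the adipokine adipsin, was 1252, 1.8 and 3.83 FPKM against 0.919 to 40.9 (median 11.6). Salivary genes were found in KO1 as well, and most did not reach the minimum count in enough tumors to be tested. *Spt1* was 501 FPKM and *Prol1* 52.2 FPKM in KO1, with at most 0.949 and 0.0584 FPKM in any Vim-high tumor. Among 8 sebaceous and lipid genes, all 8 lay above the Vim-high range in KO1, beside the same 23.5% of all genes. In all 3 Vim-low tumors 3 of them did (*Elovl4*, *Cidea* and *Alox12b*), beside 7.43% of all genes. *Alox12b*, an epidermal barrier lipoxygenase, was 6.48, 45.1 and 115 FPKM against 0.167 to 2.07 (median 0.698). Mitochondrial transcripts took 6.27% of counts in KO1 and 1.47% to 5.18% elsewhere.

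Several genes with the largest excess of KO3 and WT5 over KO1 are known from fibroblasts. *Grem1*, a BMP antagonist, was 0.443 FPKM in KO1, 18.1 in KO3 and 27.7 in WT5, against 17.2 to 131 (median 65.2). *Lrrc15* and *Adam12*, both found in activated fibroblasts, were 0.433 and 0.285 FPKM in KO1. In KO3 and WT5 they were 18.5 and 37.5 FPKM for *Lrrc15*, inside the Vim-high range of 5.53 to 46.9, and 12.8 and 26.9 FPKM for *Adam12*, inside 5.66 to 28.9. *Fap* and *Col14a1*, also fibroblast genes, went the other way, at 2.85 and 7.48 FPKM in KO1 against 0.993 and 1.40 in KO3 and 1.39 and 3.86 in WT5. The whole set of 8 was *Mmp13*, *Lrrc15*, *Adam12*, *Adamts4*, *Grem1*, *Dynap*, *Nptx1* and *Mmp9*. The part of muscle and fat RNA in these differences was not tested beyond the TMM scaling. Leaving the muscle list out of totals and scaling gave 1124 higher and 1255 lower genes for the 3 tumors.

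**Figure D3:**
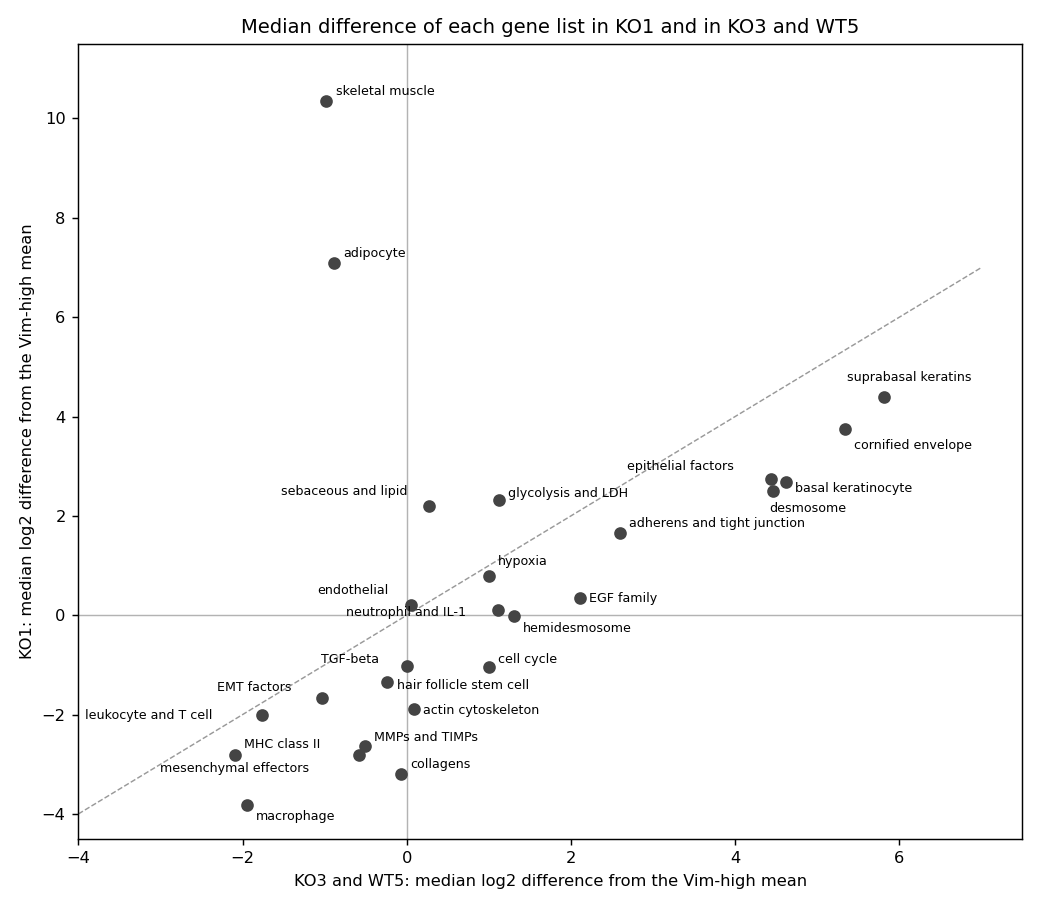
Median log2 difference from the Vim-high mean of each gene list in KO1 (vertical axis) against that in KO3 and WT5 (horizontal axis). Each point is 1 of the 26 lists with at least 7 measured genes, and the dashed line marks equal differences. Keratinocyte lists lie in the upper right below the line (basal keratinocyte 4.62 and 2.69), and muscle (-0.98 and 10.36) and adipocyte genes (-0.88 and 7.10) in the upper left. Both axes are measured from the same 7 Vim-high tumors.

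KO3 and WT5, 1 of each genotype, resembled each other in keratin content and differed in the kind of keratinocyte genes. Of the 15176 genes, 161 were at least 8-fold higher in KO3 and 70 at least 8-fold higher in WT5. *Krt1* and *Krt10*, the keratin pair of the spinous layer, were 1518 and 1903 FPKM in KO3 and 165 and 126 FPKM in WT5, close to the 193 and 192 FPKM of KO1. *Flg*, the filaggrin gene of the granular layer, was 810 FPKM in KO3 and 56.4 in WT5. WT5 in turn held more *Krt13* (1821 against 32.7 FPKM), *Itgb4* (328 against 52.2) and *Krt18*, a simple epithelial keratin (83.6 against 2.33). *Il1b* and *Cxcl2*, both inflammatory mediators, were 215 and 213 FPKM in KO3 and 26.4 and 13.9 in WT5. *Dct*, a melanocyte enzyme, was 13.9 FPKM in KO3 and 0.266 in WT5. Each of these is a difference between 2 single tumors with no replicate, and genotype, *Vim* level and tumor cannot be told apart in it.

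Part of the glycolysis genes were higher in the Vim-low tumors. Of 22 genes, 6 were higher (*Ldha*, *Ldhb*, *Pgk1*, *Hk2*, *Tpi1* and *Pkm*) and *Eno2* was lower, with a median log2 difference of 1.32. Of the 6 higher genes, 4 were also free of overlap in FPKM. Over all genes, 7.43% were higher and 8.26% lower. In KO1 13 of the 22 lay above the Vim-high range and 4 below, beside 23.5% and 22% of all genes. In KO3 and WT5 12 lay above and 1 below, beside 9.84% and 11.1%. *Ldha* (ENSMUSG00000063229, chromosome 7, 46841475 to 46855627) was 1882 FPKM in KO1, 1288 in KO3 and 2824 in WT5, against 246 to 589 (median 345) in the Vim-high tumors, and had the largest difference of the list (2.81). The 2 *Ldha*-null tumors among the Vim-low tumors therefore held more *Ldha* RNA than all 4 wild-type tumors of the Vim-high class. *Pgk1*, which makes ATP in lower glycolysis, was 650, 512 and 638 FPKM against 106 to 320 (median 206). *Slc2a1*, the main glucose transporter of epidermis, was high only in the keratin-rich tumors, at 240 FPKM in KO3 and 484 in WT5, with 43.8 in KO1 and 59.5 to 139 (median 73.7) in the Vim-high tumors. *Eno2*, the neuronal enolase, was 1.67, 3.58 and 3.94 FPKM against 7.09 to 61.4 (median 26.4). The muscle isoforms were highest in KO1: *Aldoa* was 20260 FPKM there, against 1090 in KO3, 1412 in WT5 and 753 to 1455 (median 1247) in the Vim-high tumors, and *Pfkm* was 929, 5.99 and 13.1 FPKM against 14.5 to 33.7 (median 20). Muscle genes took 18.64% of counts in KO1, and their part in its *Ldha* level was not tested.

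**Figure D4:**
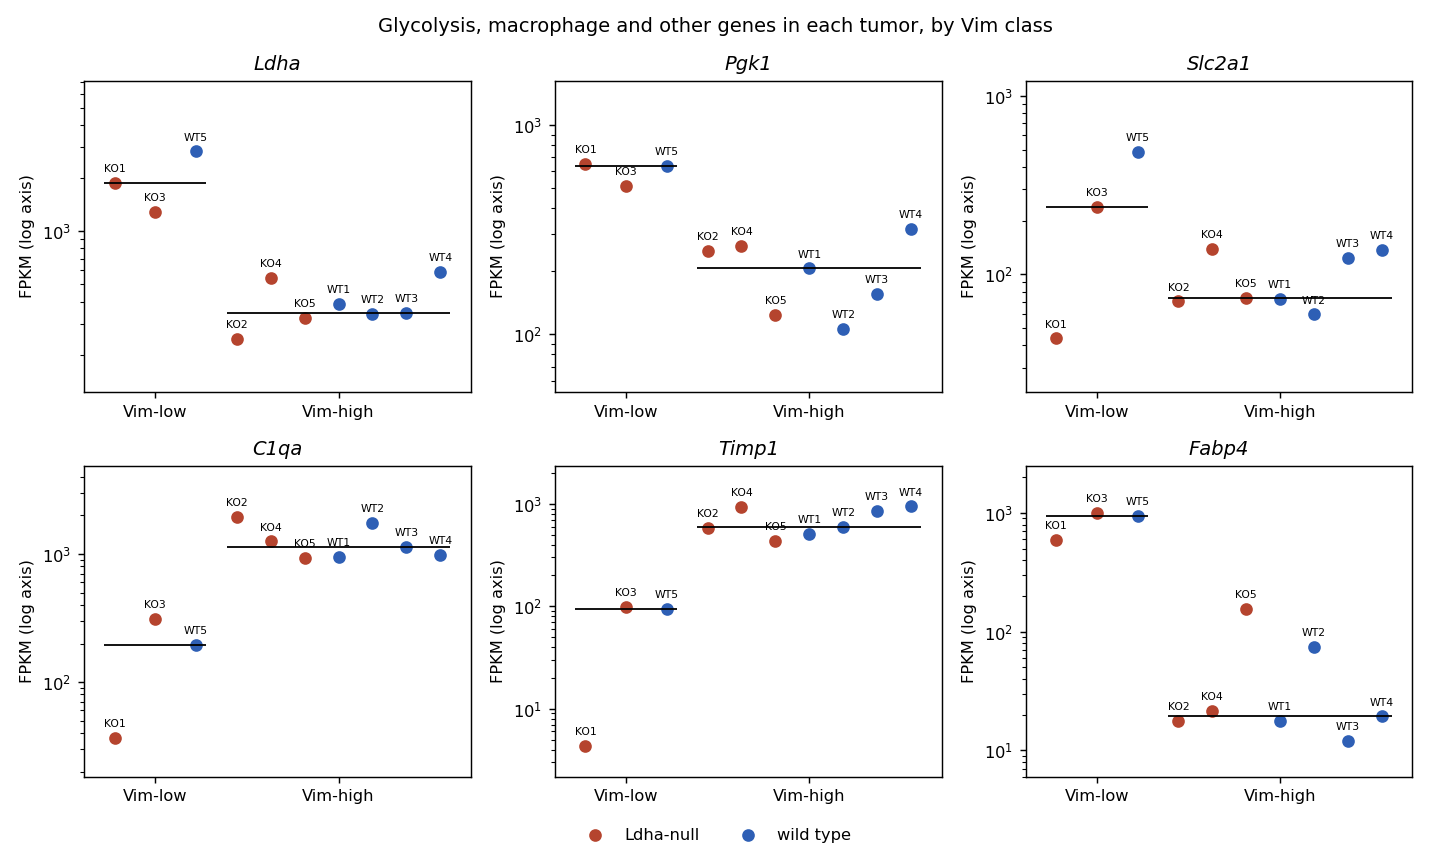
FPKM of 6 genes in each tumor on log axes, by class, with red points for *Ldha*-null and blue points for wild-type tumors and lines at class medians. *Ldha* is above 1000 FPKM in the 3 Vim-low tumors and at most 589 FPKM in the Vim-high tumors, whatever the genotype label; *Slc2a1* is high in KO3 and WT5 only; *C1qa* and *Timp1* are lower, and *Fabp4* higher, in all 3 Vim-low tumors.

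Hypoxia response genes were higher for 5 of 13 and lower for 0, with a median log2 difference of 0.75, beside 7.43% and 8.26% of all genes. Of these 5, 3 were also free of overlap in FPKM. *Egln3*, a hypoxia-induced prolyl hydroxylase, was 47.2 FPKM in KO1, 70.5 in KO3 and 102 in WT5, against 4.35 to 14.4 (median 10.1), a log2 difference of 3.40. *Vegfa*, *Car9*, *Adm* and *Ddit4* were in neither count. Ligands and receptors of the EGF family, which drive keratinocyte growth, were higher for 3 of 9 (*Tgfa*, *Erbb2* and *Erbb3*) in all 3 tumors. Only 1 of these 3 was also free of overlap in FPKM. In KO3 and WT5 7 of 9 were higher, where 9.84% of all genes were. *Areg*, the amphiregulin gene, was 60.7 FPKM in KO3 and 52.4 in WT5, with 3.88 in KO1 and 2.78 to 16.0 (median 4.53) in the Vim-high tumors. The TGF-beta list held 2 lower genes of 11 (*Inhba* and *Ltbp1*) and 0 higher, beside 8.26% of all genes lower.

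Cell cycle genes placed KO1 and the keratin-rich tumors on opposite sides of the Vim-high tumors. Over the 3 tumors, 0 of 18 genes were counted in either direction. In KO3 and WT5, 9 were above the Vim-high range and 0 below (median log2 difference 1.01), and in KO1 8 were below and 0 above (-1.04). Of all genes, 9.84% lay above the range in KO3 and WT5 and 22% below it in KO1. *Mcm5*, a replication licensing factor, was 36.1 FPKM in KO3 and 35.4 in WT5, against 5.17 to 23.5 (median 8.25), and 4.30 in KO1. On the TMM scale *Mcm5* in KO1 was near the Vim-high mean (log2 difference -0.09) and was not counted there. *Top2a* was 143 and 136 FPKM in KO3 and WT5, 14.3 in KO1, and 33.6 to 115 (median 67.6) in the Vim-high tumors.

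The hair follicle stem cell list held 1 gene higher (*Krt15*) and 1 lower (*Cd34*) of 10, shares near the 7.43% and 8.26% of all genes. *Cd34* was 17.6 FPKM in KO1, 28.5 in KO3 and 55.0 in WT5, against 66.4 to 130 (median 106). *Sox9* was 3.20, 11 and 22.1 FPKM against 23.1 to 49.1 (median 39.9), below the Vim-high range by FPKM but counted on the TMM scale only in KO1. Simple epithelial keratins varied within both classes: *Krt8* was 1.34, 14.0 and 81.2 FPKM in KO1, KO3 and WT5 and 1.62 to 431 (median 184) in the Vim-high tumors. In the actin cytoskeleton list *Cnn2* and *Msn* were lower and 0 of 11 higher, beside the same 8.26% and 7.43% of all genes. Of 6 measured neural crest genes *Mbp* was higher and 0 lower, and of 2 measured salivary genes *Mucl1* was lower, counts too small to set against these shares.

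The Vim-high tumors were not uniform in keratinocyte RNA. WT1, with the highest *Vim* (6043 FPKM), had the lowest *Krt14* (138 FPKM), and its cornified envelope list stood at -2.36 on the log2 scale relative to the Vim-high mean. WT2 and KO5 were highest for that list among the Vim-high tumors, at 1.41 and 1.28, against 3.43 in KO1, the lowest of the Vim-low tumors. The basal keratinocyte list ranged from -1.61 to 0.82 in the Vim-high tumors and from 2.30 to 4.32 in the Vim-low tumors.

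Genotype came from the labels and was not used to form the classes, so it was tested. Of the 3 Vim-low tumors 2 were *Ldha*-null (66.7%), against 3 of the 7 Vim-high tumors (42.9%). A two-sided Fisher's exact test over the 10 tumors gave p = 1, and the smallest p this design allows is 0.167. With *Vim* class in the model, 0 of 15176 genes differed between genotypes in edgeR's quasi-likelihood test at a Benjamini-Hochberg adjusted p under 0.05. The smallest adjusted p was 0.9996, and 275 genes had an unadjusted p under 0.05. These 275 are a smaller share than the 0.05 that chance alone would give, so the 0 calls do not show equal levels. DESeq2 had 440 genes at an unadjusted p under 0.05 and limma-voom 714. DESeq2 called 3 genes, *Plxdc2*, *Dapl1* and *Cmpk2*, and limma-voom with quality weights called 0. *Dapl1*, a gene of epithelial differentiation, had a log2 difference of 1.83 (SE 0.36) between *Ldha*-null and wild-type tumors, at an edgeR adjusted p of 0.9996 and a DESeq2 adjusted p of 0.0034. *Plxdc2* had a log2 difference of 0.98 (SE 0.19), with the same edgeR adjusted p of 0.9996 and a DESeq2 adjusted p of 0.0034. *Cmpk2*, an interferon-induced kinase, had 2.99 (SE 0.74), with a DESeq2 adjusted p of 0.04995. *Scml4* and *I830012O16Rik* completed the 5 smallest p, with log2 differences of 1.85 and 3.22 and edgeR adjusted p-values of 0.9996.

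*Ldha* itself was not called between the genotype labels with class in the model. The fitted log2 difference of *Ldha*-null from wild-type tumors was -0.26 (SE 0.35, 95% interval -1.03 to 0.50, edgeR adjusted p = 0.9996), against 0.33 without the class term. Within the Vim-high class it was 246, 542 and 324 FPKM in KO2, KO4 and KO5, and 390, 340, 345 and 589 FPKM in WT1 to WT4. Of the other markers in that model, *Krt14* had a log2 difference of 0.09 (95% interval -1.65 to 1.83). This interval is wide, and a difference of 2-fold in either direction is inside it. *Vim* is left out here, since its own level formed the class term.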

How the data were processed

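Messenger RNA of 10 fresh tumors was enriched on oligo(dT) beads and sequenced on a HiSeq2500. Per the labels and the study's methods, base calling used CASAVA 1.8, and low-quality reads were removed and the rest aligned to mm10 with TopHat2. The deposited counts are whole fragments per gene, for which the authors ran HTSeq (union mode), and the deposited FPKM were computed by the authors from them. The versions of the aligner and counter and the annotation are not named in the sources used here, and the library is not described as stranded, so overlapping antisense genes cannot be separated. All files and 15176 of 25260 counted genes (filterByExpr, minimum count 10 and total 15) were used. The filter asks for the minimum count in about as many tumors as a genotype group holds. Genes found mainly in the Vim-low tumors, such as *Sprr3*, could therefore be left out.

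*Vim* FPKM set the classes. Class differences used log2 CPM (TMM, prior count 2) and were described without a test. Genotype was tested with edgeR 4.0.16 in R 4.3.3 on the counts, with *Vim* class as covariate and Benjamini-Hochberg adjustment at 0.05, and DESeq2 1.42.0 and limma 3.58.1 as alternatives. The biological coefficient of variation was 50.0%, far above counting error. Each tumor is a sample of its own, from a different mouse according to the design text. The edgeR genotype test and the difference of class means were run on simulated counts. Those counts held planted changes only, without the muscle RNA of KO1 or other real differences between tumors. The rule of no overlap between the classes was not tested in this way.

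The classes, 29 gene lists (372 genes, 344 tested) and the rule for naming genes were chosen with earlier results of these data known. The rule took the 6 markers, the 3 members per list (or fewer) whose class difference was largest, the 10 largest differences in each direction that did not overlap (mean log2 CPM at least 3), the 8 largest differences between KO1 and the pair in each direction, *Ldha*, and the 5 smallest genotype p-values. Other list members and genes named in the text were chosen after their values were seen. Some genes are in 2 lists. Promoter sequences came from RefSeq (GRCm38.p6). Part of the genotype of the tumor model is not reported here. Alternatives are given in the closing section.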

Additional observations from a re-analysis of the deposited data

Results flagged for a closer look

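The list of simple epithelial keratins (*Krt7*, *Krt8* and *Krt18*) in WT2 was the only value far from the others of its group among 35 checked over the 7 Vim-high tumors. Its mean stood at -2.72 on the log2 scale relative to the Vim-high mean, and the gap to the nearest tumor was 0.612 of the range, above the critical value of 0.568. Chance flags about 1 in 20 such groups.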

How the results depend on the processing

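Among the 123 genes named by the rule, no counted gene changed the sign of its class difference under an alternative. On log2(FPKM + 1), 464 genes were higher in the Vim-low tumors, 1416 lay above and 5265 below the Vim-high range in KO1, and 904 lay above it in KO3 and WT5. At 4-fold, 608 were higher and 512 lower, 1732 lay above and 1585 below in KO1, and 717 and 447 in KO3 and WT5. With the limit on *Vim* at 1000 FPKM, which leaves KO1 and KO3 as low, 711 genes were higher. These counts moved by over 1.5 times; RLE scaling, no filter, a prior count of 0.5 and leaving out muscle genes did not move a count so far. Leaving out 1 tumor gave 1134 to 1518 higher and 1272 to 1725 lower genes. Without KO1 the list medians of muscle (-0.98), adipocyte (-0.88), simple keratin (0.17), TGF-beta (0.01) and cytoskeleton genes (0.09) changed sign. Other list medians that changed sign were endothelial (-0.34), hemidesmosome (-0.07) and cell cycle (-0.01) on FPKM, cell cycle (-0.06) at 1000 FPKM and endothelial (-0.08) without KO3. The cause of these changes was not tested.

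For genotype with *Vim* class in the model, DESeq2 called 3 genes and edgeR 0 in every alternative run with it. Same-numbered tumors across genotypes had correlations of -0.51 to 0.55 in their deviations from the genotype means. *Vim* class stays in these deviations, and KO1, KO3 and WT5 each share their number with a Vim-high tumor. Whether tumor numbers mark pairs therefore cannot be told from them. With the replicate block edgeR called 0 genes (331 had an unadjusted p under 0.05). The *Ldha*-null share of the Vim-low tumors was 50% to 100% with 1 tumor left out. Few tumors limit all of this: the Vim-low class has 3, of which KO1 is 1 of its kind.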
